A study of Danio rerio with 20 samples.

Results

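The genes described here are 74 of the 32057 zebrafish gene rows in the table, chosen by their level in PNP embryo pools, which peaked at 12 h post fertilization (hpf). The unit is TPM, a gene's share of a library's transcripts corrected for length, so levels can be compared between genes. A row was kept where the mean of the 2 PNP libraries at 12 hpf was at least 5 TPM and at least 2 times both the PNP mean at 8 hpf and the PNP mean at 16 hpf. Rows whose symbol starts with hox or wnt were left out, which removed 1 row, hoxb1b. The PNP values at 8, 12 and 16 hpf therefore chose the genes and are given as a description, whereas the MPNP libraries and the 10 and 14 hpf libraries of both pools took no part in the choice.

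MPNP pools were un-genotyped offspring of mdm2+/- parents that were also puma-/-, noxa-/- and p21-/-. About 25% of the embryos in such a pool were expected to be mdm2-/-, and their true share in each pool is unknown. PNP pools were offspring of puma-/-, noxa-/- and p21-/- parents with no mdm2 mutation. Each pool held about 50 whole embryos, all of them lacking puma, noxa and p21, and there were 2 libraries, numbered 1 and 2, of each pool at 8, 10, 12, 14 and 16 hpf (20 in all). In a pool of whole embryos, fewer cells that use a gene and less RNA per cell cannot be told apart.

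Between 10 and 14 hpf the zebrafish embryo ends gastrulation, forms the neural plate and begins to lay down somites. During this time the neural plate is divided along its length into the fields of the forebrain, eye, midbrain, hindbrain and spinal cord, its border is set aside for neural crest and placodes, and the tailbud takes over growth of the posterior body. Many of the genes that carry out these steps encode transcription factors that are switched on for a few hours and then restricted to small groups of cells. Mdm2 is the ubiquitin ligase that holds the tumour suppressor p53 down, and the products of puma, noxa and p21 act below p53 in cell death and cell cycle arrest.

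The libraries differed in ways that touch these genes. From 13080 to 15326 genes reached 1 TPM in a library. The stage marker tbxta, active in early mesoderm and notochord, averaged 364 TPM in MPNP against 368 in PNP at 8 hpf, and 59.5 TPM in MPNP against 58.8 in PNP at 16 hpf. Between these stages tbxta averaged 226 against 228 TPM at 10 hpf and 85.7 against 95.7 at 12 hpf. The genes myl10 and myog rose with stage. In MPNP myl10 averaged 1.215 TPM against 2.09 in PNP at 10 hpf, 15.3 against 23.2 at 12 hpf and 52.5 against 61.1 at 14 hpf. Its libraries did not overlap between the pools at these stages. For myog the means were 0.135 TPM in MPNP against 0.28 in PNP at 12 hpf, without overlap, and 2.67 against 3.62 at 14 hpf, where the libraries overlapped. The myod1 libraries overlapped at each stage. Whether the pools differed in stage was not tested. As a check of the labels, mdm2 itself averaged 133 ± 23 TPM for MPNP against 118 ± 8.8 TPM for PNP at 8 hpf, and its mean at 16 hpf was 321 ± 5.7 TPM for MPNP against 114 ± 0.89 TPM for PNP (SD over 2 libraries). A level in a pool of mixed genotypes does not show which allele was read. At 12 hpf, 47 of the 74 genes were higher in library 2 than in library 1 of MPNP, as were 50 of the 74 in PNP. The share over all genes tested was not measured, and the PNP values at 12 hpf took part in choosing the genes. Because libraries with the same number deviated together in both pools, MPNP libraries are not fully independent of the PNP libraries that chose the genes. No label says that libraries 1 and 2 stand for different crosses, and the p-values cover the spread between these libraries alone, which may be technical.

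In PNP at 12 hpf the 74 genes ranged from a mean of 5.05 TPM (atcay) to 809 TPM (tagln), with a median of 19.9 TPM. Of these genes, 27 lay between 5 and 10 TPM, 31 between 10 and 50 TPM, 6 between 50 and 100 TPM and 10 above. The PNP mean at 12 hpf was a median of 2.48 times the higher of the 8 and 16 hpf means and at most 7.00 times (klf2a). That ratio is undefined for 3 rows listed at 0 in all PNP libraries of 8 and 16 hpf. The PNP mean was highest at 12 hpf for 61 genes, at 10 hpf for 11 and at 14 hpf for 2. Applied to libraries 1 alone the rule kept 52 of the 74, applied to libraries 2 alone it kept 65, and 44 met it in each.

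The values at the edge of the rule were close to each other. Just inside the level threshold were atcay at 5.05 TPM and si:dkey-222f2.3 at 5.08 TPM in PNP at 12 hpf, and just outside were ENSDARG00000109467 at 4.69 TPM and si:rp71-36a1.2 at 4.61 TPM. The PNP libraries of si:dkey-222f2.3 held 0.25 and 9.90 TPM at 12 hpf, and 52.4 and 0.36 TPM at 14 hpf, where its PNP mean was highest. Its MPNP mean was highest at 12 hpf, from 17.5 and 0.20 TPM, so both 12 hpf means rest on 1 library. Just inside the ratio threshold were kctd15 at 2.00 and tagln at 2.01, and just outside were the clock gene per2 at 1.98 and ENSDARG00000117447 at 1.97.

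The name table paired 70 of the 74 rows with a symbol, and 57 had a symbol that is not derived from a clone. By textbook role, assigned by hand with the values known, 20 of these 57 encode DNA-binding transcription factors. They include the homeobox genes rx3, six7, otx2, cdx1a, dmbx1, phox2a, mnx2b and nkx1.2la, the basic helix-loop-helix genes twist1a, twist2, olig2 and her5, the zinc-finger genes zic1, fezf2, klf2a and znf488, the paired-domain gene pax8, and the nuclear receptors nr6a1, esrra and rxrgb. A further 4 act on transcription without being classed as DNA-binding factors here (vgll3, kctd15, samd1a, samd1b). Signals, receptors and surface proteins took 5 places (shh, szl, ephb3, gabrp, plxdc2). Proteins of the cytoskeleton or of signalling inside the cell took 9, enzymes or their subunits 9 and small nucleolar RNAs 4, and 6 were not assigned. How common each role is among all genes was not measured. The symbols tagln, nr6a1, hyal2, ephb3, daam1, cdc42ep4, dmbx1, shh and atcay each stood on 2 rows, and the other row is not a member.

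**Figure D1:**
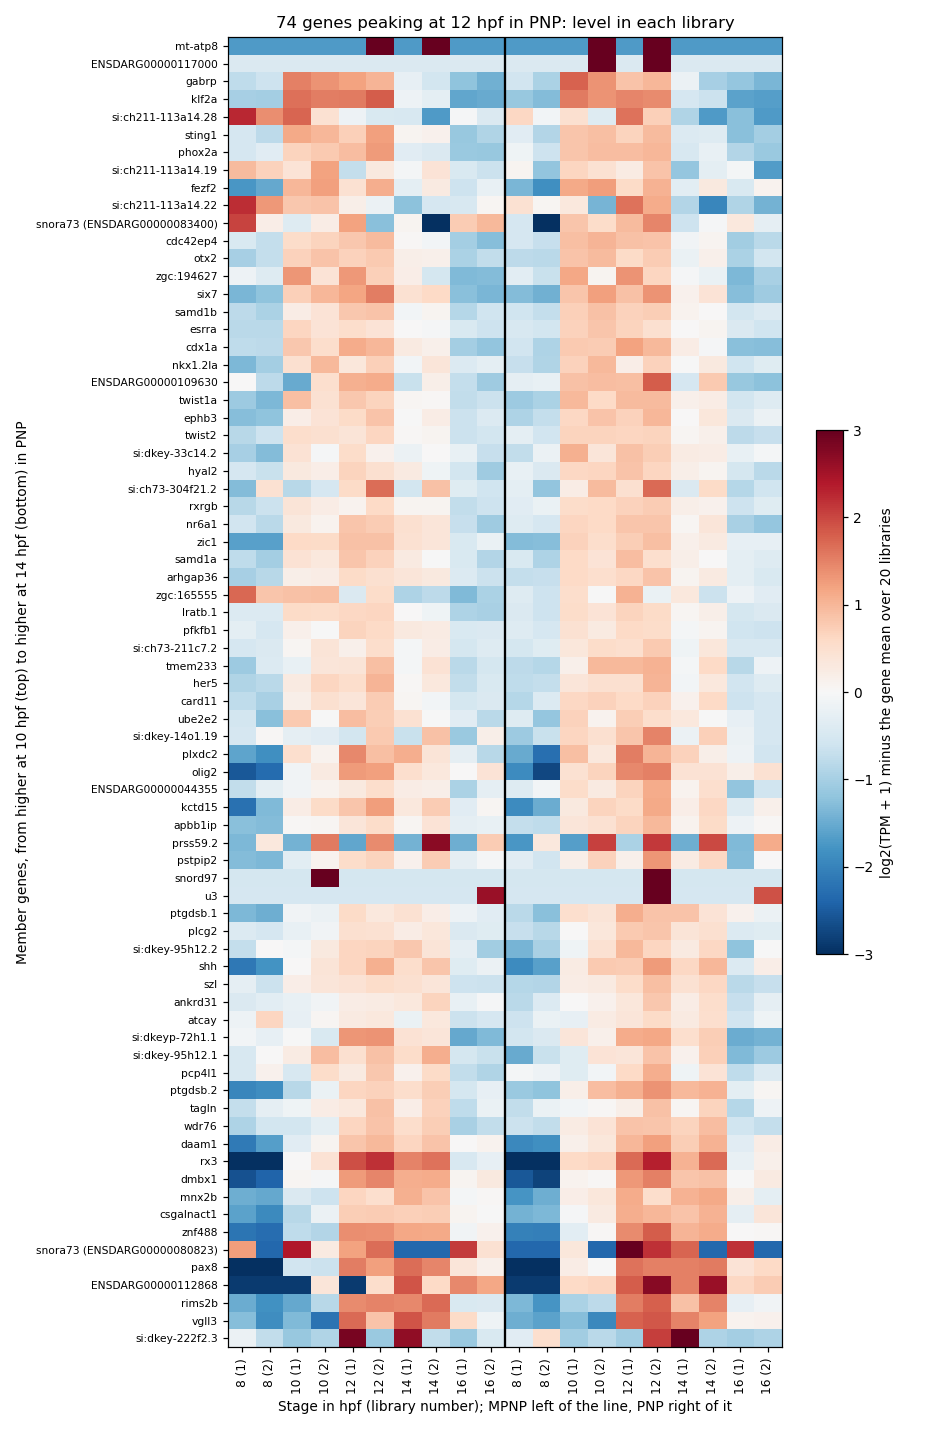
Level of each of the 74 genes in each of the 20 libraries, as log2(TPM + 1) minus the gene's mean over all libraries, with red for higher and blue for lower. MPNP libraries stand left of the line and PNP libraries right of it, by stage with the library number in brackets, and genes run from those higher at 10 hpf than at 14 hpf in PNP (top) to the reverse (bottom). In both pools most rows are blue at 8 and 16 hpf and red at 12 hpf, while a few rows hold 1 or 2 isolated libraries.

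The first question was whether the peak seen in PNP was also present in the MPNP libraries. Most of the genes peaked there too. The test was limma on log2(TPM + 1) over all 16586 genes with a mean of at least 0.5 TPM over the 20 libraries. The rule fixed in advance that the 74 genes pass this filter, since their PNP level at 12 hpf is enough for it. The genes tested reach down to lower levels than the rule allows and were not matched to the 74 for level. In MPNP, 56 of the 74 were higher at 12 hpf than at 8 hpf (75.7%, against 27.9% of all genes tested). Another 3 were lower (17.2% of all genes tested were lower). At 12 hpf 58 were higher than at 16 hpf (78.4%, against 14.5% of all genes tested) and 0 were lower (22.5% of all genes tested were lower). No call means that the adjusted p, by Benjamini-Hochberg over all genes tested, was not under 0.05.

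Both calls held for 54 of the 74 genes (73.0%, against 2.16% of all genes tested), the 2 comparisons sharing the 12 hpf libraries. Both MPNP libraries at 12 hpf lay above all 4 MPNP libraries of 8 and 16 hpf for 59 genes (79.7%, against 7.19%). The median difference over the 74 genes was 1.52 on the log2(TPM + 1) scale for 12 minus 8 hpf, against 0.15 over all genes tested, and 1.15 for 12 minus 16 hpf, against -0.04. Genes of at least 10 TPM in PNP at 12 hpf passed both tests in 39 of 47 cases, and those under 10 TPM in 15 of 27. All 20 transcription factors passed both, as did the 4 other transcription regulators and the 5 signals, receptors and surface proteins, whereas 0 of the 4 small nucleolar RNAs did. The roles were assigned by hand with the values known, and the share passing both in each role was not measured over all genes tested. Of these genes fezf2, olig2, kctd15, vgll3 and shh lost the call over 16 hpf under some alternatives, given below.

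**Figure D2:**
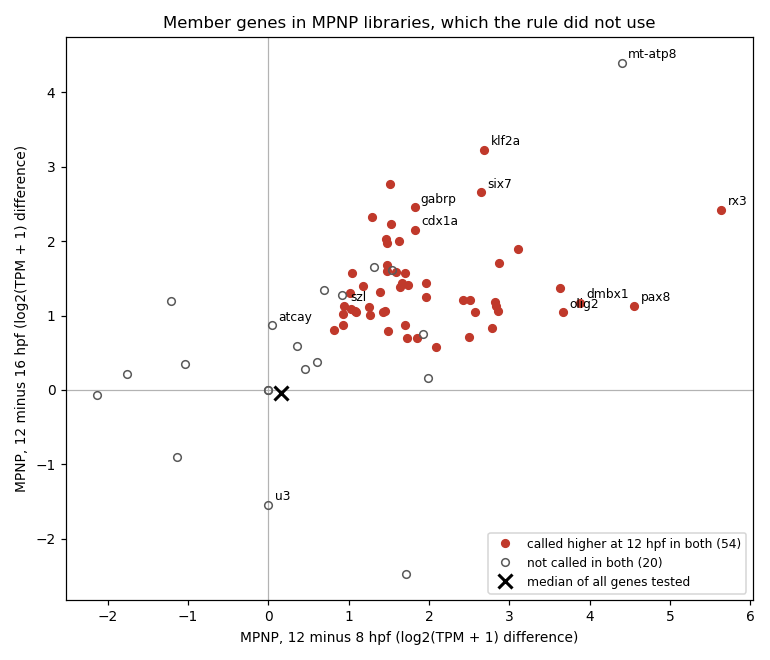
Difference in MPNP between 12 and 8 hpf (horizontal axis) and between 12 and 16 hpf (vertical axis) for each of the 74 genes, on the log2(TPM + 1) scale. The 54 filled points passed the limma test in both, and rx3 lies farthest right at 5.64 while the cross, the median of all genes tested, lies near the origin at 0.15 and -0.04.

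The stage with the highest MPNP mean was 12 hpf for 48 genes (64.9%, against 9.63% of all genes tested), 10 hpf for 9, 14 hpf for 10, 8 hpf for 5 and 16 hpf for 1, and the remaining row was listed at 0 in every MPNP library. It was the same stage as in PNP for 49 genes, and the share of all genes tested for which the stages matched was not measured. The rule applied to the MPNP columns kept 85 rows, of which 49 were among the 74, or 66.2% of the PNP set and 57.6% of the MPNP set. Scaled to the PNP mean at 12 hpf, the median gene stood at 0.252, 0.626, 0.869, 0.650 and 0.342 over the 5 stages in MPNP, against 0.248, 0.712, 1, 0.652 and 0.357 in PNP, where the 12 hpf value is 1 by construction. The 2 curves lay closest at 8, 14 and 16 hpf.

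**Figure D3:**
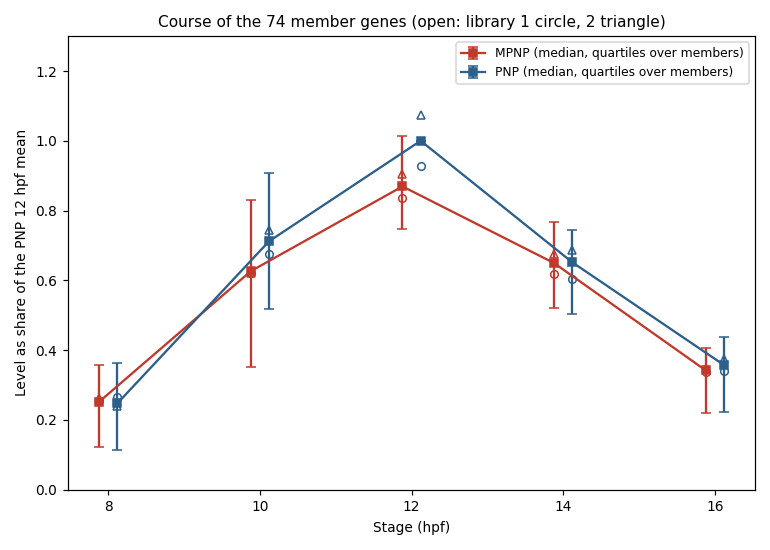
Median over the 74 genes of the level at each stage, as a share of the gene's own PNP mean at 12 hpf, in MPNP (red) and PNP (blue), with bars for the quartiles over genes and open symbols for the 2 libraries. The MPNP median reaches 0.869 at 12 hpf and lies below PNP at 10 hpf, at 0.626 against 0.712.

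The largest difference between 12 and 8 hpf in MPNP was that of rx3 (ENSDARG00000052893), a homeobox gene that specifies the eye field and is needed for the optic vesicles to form. In MPNP libraries 1 and 2, rx3 stood at 1.63 and 1.33 TPM at 8 hpf, 29.0 and 38.7 at 10 hpf, 112 and 133 at 12 hpf, 81.8 and 91.0 at 14 hpf, and 20.2 and 23.9 at 16 hpf. In PNP it stood at 1.93 and 0.40 TPM at 8 hpf, 44.0 and 45.6 at 10 hpf, 95.1 and 148 at 12 hpf, 59.6 and 95.7 at 14 hpf, and 24.6 and 31.8 at 16 hpf. The course thus began near 0 and the 12 hpf libraries overlapped between the pools. In MPNP the log2 difference was 5.64 ± 0.32 (adjusted p = 2.2e-08) for 12 minus 8 hpf and 2.42 ± 0.32 (adjusted p = 5.7e-05) for 12 minus 16 hpf, where the value after ± is the standard error (SE).

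The homeobox gene six7 (ENSDARG00000070107), active in the anterior neural plate and later in photoreceptors, stood in MPNP at 5.51 and 6.35 TPM at 8 hpf, 37.1 and 47.9 at 12 hpf, and 6.13 and 5.56 at 16 hpf. Its PNP libraries held 5.83 and 5.26 TPM at 8 hpf, 29.9 and 42.2 at 12 hpf, and 6.02 and 7.07 at 16 hpf. Each 12 hpf library of MPNP was far above the 8 and 16 hpf ones, with log2 differences of 2.64 ± 0.19 (adjusted p = 2.3e-07) and 2.66 ± 0.19 (adjusted p = 3.4e-07). The homeobox gene otx2 (ENSDARG00000011235), required for forebrain and midbrain, reached its highest PNP level at 10 hpf, earlier than six7. In MPNP it held 24.5 and 30.2 TPM at 8 hpf, 81.7 and 91.2 at 10 hpf, 81.5 and 87.0 at 12 hpf, 56.6 and 55.7 at 14 hpf, and 25.4 and 29.6 at 16 hpf. PNP libraries had 28.7 and 27.9 TPM at 8 hpf, 91.7 and 96.9 at 10 hpf, 74.98 and 85.5 at 12 hpf, 43.5 and 55.3 at 14 hpf, and 25.4 and 33.8 at 16 hpf. Its 10 and 12 hpf libraries overlapped in MPNP (log2 difference 12 minus 10 hpf -0.04 ± 0.15 (adjusted p = 0.91)), and 12 hpf was above 8 hpf by 1.59 ± 0.15 (adjusted p = 2.8e-06) and above 16 hpf by 1.58 ± 0.15 (adjusted p = 4.5e-06).

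The forebrain zinc-finger gene fezf2 (ENSDARG00000070677) also stood highest at 10 hpf, with 5.44 and 6.40 TPM at 8 hpf, 41.8 and 49.7 at 10 hpf, 28.6 and 45.3 at 12 hpf, 16.6 and 25.1 at 14 hpf, and 13.0 and 17.4 at 16 hpf in MPNP. The PNP libraries held 7.37 and 5.01 TPM at 8 hpf, 46.7 and 50.5 at 10 hpf, 31.1 and 43.6 at 12 hpf, 16.3 and 25.5 at 14 hpf, and 14.7 and 22.2 at 16 hpf. At 12 hpf library 2 was well above library 1 in both pools, and the MPNP difference between 12 and 16 hpf of 1.21 ± 0.30 (adjusted p = 0.0064) was not called without MPNP 12 hpf library 2 (0.88, adjusted p = 0.084) or without MPNP 16 hpf library 1 (1.01, adjusted p = 0.060). Between 12 and 8 hpf it was 2.42 ± 0.30 (adjusted p = 2.4e-05).

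Further back along the neural plate, dmbx1 (ENSDARG00000009922), a homeobox gene of the midbrain that was picked after its values were seen, held 0.32 and 0.52 TPM at 8 hpf, 18.4 and 21.3 at 12 hpf, and 7.57 and 8.90 at 16 hpf in MPNP, with log2 differences of 3.88 ± 0.15 (adjusted p = 1.2e-09) and 1.17 ± 0.15 (adjusted p = 3.6e-05). The PNP pools showed 0.37 and 0.18 TPM at 8 hpf, 18.7 and 21.9 at 12 hpf, and 6.97 and 8.76 at 16 hpf. The Hairy-related repressor her5 (ENSDARG00000008796), which keeps cells at the border of midbrain and hindbrain from becoming neurons, held 10.7 and 11.5 TPM at 8 hpf, 30.6 and 43.3 at 12 hpf, and 12.0 and 14.8 at 16 hpf in MPNP. The PNP libraries of her5 held 11.8 and 12.2 TPM at 8 hpf, 29.6 and 43.1 at 12 hpf, and 13.6 and 15.7 at 16 hpf. For her5 library 2 was above library 1 at 12 hpf in both pools, and the MPNP differences were 1.63 ± 0.21 (adjusted p = 4.1e-05) over 8 hpf and 1.39 ± 0.21 (adjusted p = 2.3e-04) over 16 hpf.

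The paired-domain gene pax8 (ENSDARG00000015879), a regulator of the ear placode and the early kidney that also marks the border of midbrain and hindbrain, was nearly absent at 8 hpf. In MPNP it held 0.32 and 0.26 TPM at 8 hpf, 6.83 and 6.51 at 10 hpf, 32.5 and 26.4 at 12 hpf, 36.4 and 31.4 at 14 hpf, and 13.9 and 11.9 at 16 hpf. In PNP the libraries had 0.41 and 0.21 TPM at 8 hpf, 12.7 and 10.6 at 10 hpf, 35.0 and 32.4 at 12 hpf, 32.4 and 33.3 at 14 hpf, and 14.6 and 16.6 at 16 hpf. Its 12 and 14 hpf libraries overlapped in both pools, and its MPNP differences were 4.56 ± 0.14 (adjusted p = 3.1e-10) over 8 hpf and 1.13 ± 0.14 (adjusted p = 4.3e-05) over 16 hpf.

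The TEAD cofactor gene vgll3 (ENSDARG00000038305) was still low at 10 hpf. Its MPNP libraries held 1.56 and 0.71 TPM at 8 hpf, 1.49 and 0.35 at 10 hpf, 19.4 and 10.3 at 12 hpf, 22.2 and 17.3 at 14 hpf, and 8.27 and 4.73 at 16 hpf. Its PNP libraries held 1.25 and 1.05 TPM at 8 hpf, 1.56 and 0.64 at 10 hpf, 20.2 and 21.6 at 12 hpf, 16.5 and 13.4 at 14 hpf, and 5.75 and 5.87 at 16 hpf. All 8 and 10 hpf libraries stayed under 2 TPM, and the MPNP difference over 10 hpf was 3.05 ± 0.35 (adjusted p = 6.8e-05). Over 16 hpf the MPNP difference of 1.06 ± 0.35 (adjusted p = 0.031) was not called without MPNP 12 hpf library 1 (0.63, adjusted p = 0.26), without MPNP 16 hpf library 2 (0.71, adjusted p = 0.23) with a pseudocount of 0.1 (adjusted p = 0.12) or in a fit to the MPNP libraries alone (1.06, adjusted p = 0.087).

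**Figure D4:**
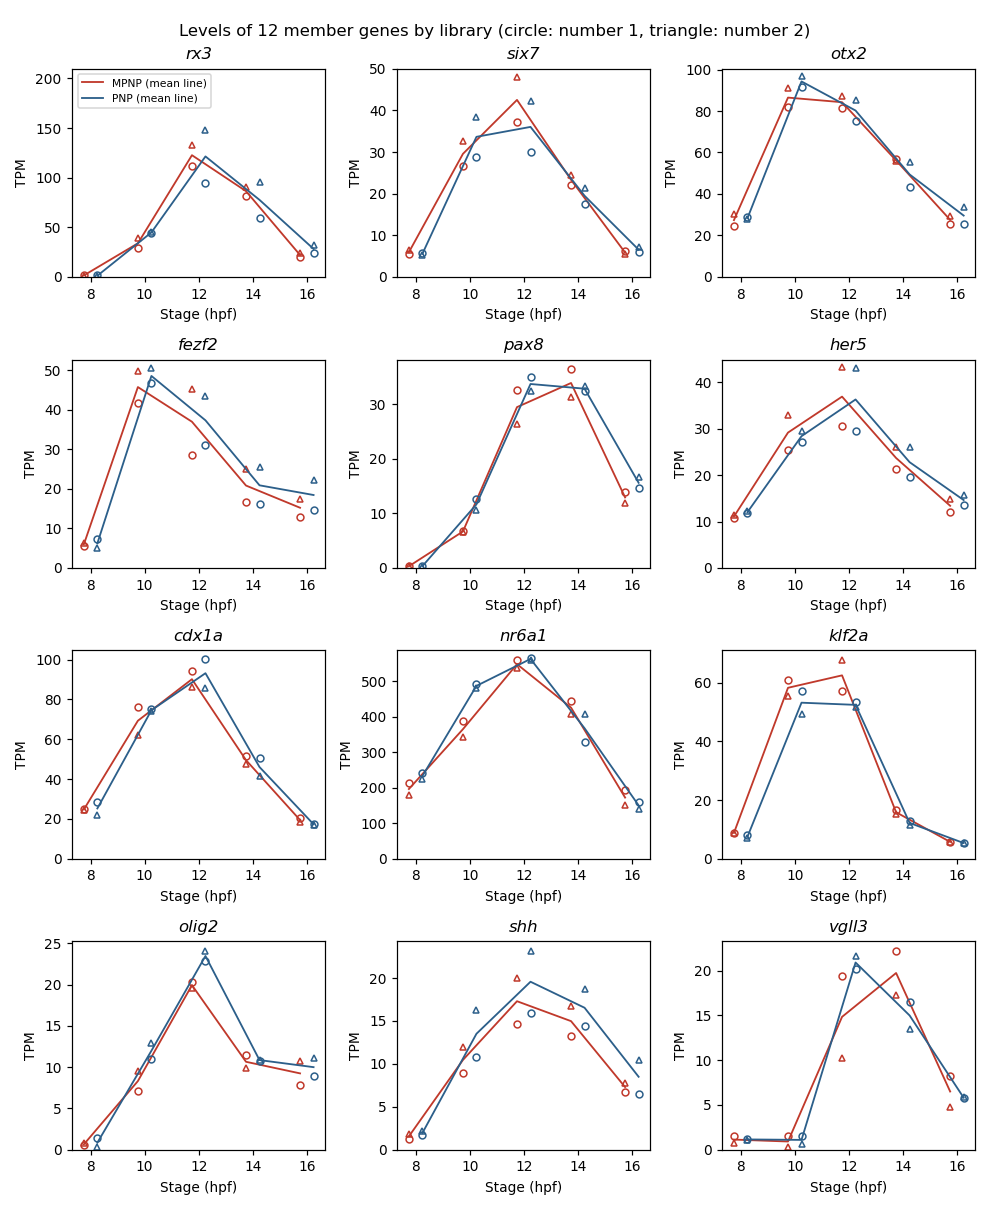
TPM of 12 of the genes by stage, with circles for library 1, triangles for library 2 and lines through the group means, MPNP in red left of PNP in blue. Each gene is lower at 8 and 16 hpf than at 12 hpf in both pools, otx2 and fezf2 are already high at 10 hpf, and vgll3 stays under 2 TPM until 12 hpf.

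Genes of the neural plate border and neural crest were also among the members. The zinc-finger gene zic1 (ENSDARG00000015567), active in the border and the dorsal neural tube, held 5.64 and 5.58 TPM at 8 hpf, 36.4 and 36.6 at 12 hpf, and 13.8 and 16.9 at 16 hpf in MPNP. In PNP it held 7.26 and 7.40 TPM at 8 hpf, 33.0 and 37.2 at 12 hpf, and 16.4 and 16.2 at 16 hpf. Its replicate libraries lay close together and the MPNP differences were 2.504 ± 0.11 (adjusted p = 4.6e-09) and 1.21 ± 0.11 (adjusted p = 3.0e-06). The gene kctd15 (ENSDARG00000045893), whose product restrains neural crest formation in zebrafish, held 4.64 and 9.48 TPM at 8 hpf, 46.3 and 61.6 at 12 hpf, and 19.8 and 26.7 at 16 hpf in MPNP, with 2.82 ± 0.32 (adjusted p = 1.3e-05) over 8 hpf. Its difference of 1.18 ± 0.32 (adjusted p = 0.011) over 16 hpf was not called without MPNP 12 hpf library 2 (0.98, adjusted p = 0.097) or without MPNP 16 hpf library 1 (0.97, adjusted p = 0.090). The mesenchyme regulator twist1a (ENSDARG00000030402), expressed in migrating crest, held 50.8 and 45.9 TPM in MPNP and 56.1 and 55.6 TPM in PNP at 12 hpf, and was above 8 hpf by 1.96 ± 0.16 (adjusted p = 5.3e-07) and above 16 hpf by 1.43 ± 0.16 (adjusted p = 1.3e-05) in MPNP. Its relative twist2 (ENSDARG00000078266) held 23.1 and 28.1 TPM in MPNP and 28.1 and 28.3 TPM in PNP at 12 hpf, and its MPNP differences of 1.25 ± 0.12 (adjusted p = 3.4e-06) and 1.11 ± 0.12 (adjusted p = 1.4e-05) were smaller.

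Other members encode a signal, a transcription factor and a secreted inhibitor. The row paired with shh (ENSDARG00000038867), 1 of 2 rows with that symbol, encodes a Hedgehog ligand of the ventral midline and held 1.24 and 1.88 TPM at 8 hpf, 14.7 and 19.9 at 12 hpf, and 6.77 and 7.83 at 16 hpf in MPNP. PNP libraries had 1.71 and 2.19 TPM at 8 hpf, 16.0 and 23.2 at 12 hpf, and 6.54 and 10.46 at 16 hpf. Its 12 hpf libraries spread more than those of zic1, and the MPNP difference of 1.13 ± 0.27 (adjusted p = 0.0052) over 16 hpf was not called without MPNP 12 hpf library 2 (0.92, adjusted p = 0.060), while over 8 hpf it was 2.83 ± 0.27 (adjusted p = 2.5e-06). The helix-loop-helix gene olig2 (ENSDARG00000040946), which marks progenitors of motor neurons and oligodendrocytes, held 0.52 and 0.78 TPM at 8 hpf, 20.3 and 19.6 at 12 hpf, and 7.81 and 10.7 at 16 hpf in MPNP. The PNP pools showed 1.39 and 0.32 TPM at 8 hpf, 22.9 and 24.1 at 12 hpf, and 8.90 and 11.1 at 16 hpf. The MPNP differences of olig2 were 3.67 ± 0.24 (adjusted p = 8.3e-08) and 1.04 ± 0.24 (adjusted p = 0.0039), the second of which was not called with a pseudocount of 0.1 (adjusted p = 0.053). The secreted Sizzled protein, encoded by szl (ENSDARG00000099637), inhibits the protease that cleaves the BMP antagonist Chordin. For szl the MPNP libraries held 37.4 and 28.5 TPM at 8 hpf, 61.6 and 66.2 at 12 hpf, and 28.8 and 28.5 at 16 hpf, and the PNP libraries held 24.5 and 23.9 TPM at 8 hpf, 66.1 and 85.2 at 12 hpf, and 25.5 and 27.7 at 16 hpf. Its 12 hpf libraries overlapped between the pools, and the differences over 8 and 16 hpf in MPNP were 0.95 ± 0.14 (adjusted p = 1.1e-04) and 1.13 ± 0.14 (adjusted p = 3.7e-05).

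Posterior and abundant genes followed. The caudal homeobox gene cdx1a (ENSDARG00000114554), a regulator of posterior body identity, held 25.1 and 24.4 TPM at 8 hpf, 76.4 and 62.2 at 10 hpf, 94.2 and 86.1 at 12 hpf, 51.6 and 47.5 at 14 hpf, and 20.5 and 18.4 at 16 hpf in MPNP. In PNP the libraries had 28.5 and 22.1 TPM at 8 hpf, 75.1 and 74.04 at 10 hpf, 100.4 and 85.9 at 12 hpf, 50.5 and 41.7 at 14 hpf, and 17.5 and 17.1 at 16 hpf. The pools overlapped from 8 to 14 hpf and lay slightly apart at 16 hpf, with MPNP differences of 1.82 ± 0.14 (adjusted p = 4.5e-07) and 2.16 ± 0.14 (adjusted p = 1.5e-07). The orphan nuclear receptor gene nr6a1 (ENSDARG00000101508) was the second most abundant member, with 213 and 179 TPM at 8 hpf, 387 and 342 at 10 hpf, 559 and 536 at 12 hpf, 444 and 407 at 14 hpf, and 194 and 151 at 16 hpf in MPNP. In PNP it held 241 and 224 TPM at 8 hpf, 491 and 482 at 10 hpf, 565 and 559.6 at 12 hpf, 328 and 407 at 14 hpf, and 159.9 and 141 at 16 hpf. At 10 hpf both MPNP libraries of nr6a1 lay below both PNP libraries, a difference of -0.42 ± 0.14 (adjusted p = 0.38), and its MPNP differences of 12 hpf over 8 and 16 hpf were 1.48 ± 0.14 (adjusted p = 2.8e-06) and 1.67 ± 0.14 (adjusted p = 1.5e-06).

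The most abundant member was tagln (ENSDARG00000033466), which encodes the actin-binding protein transgelin. Its MPNP libraries held 332 and 457 TPM at 8 hpf, 678 and 1005 at 12 hpf, and 324 and 479 at 16 hpf. Its PNP libraries held 329 and 476 TPM at 8 hpf, 618 and 1000.1 at 12 hpf, and 305 and 493 at 16 hpf. Library 2 was above library 1 at every stage in both pools, and PNP library 1 alone did not meet the rule. The MPNP differences of 1.08 ± 0.34 (adjusted p = 0.020) and 1.07 ± 0.34 (adjusted p = 0.026) were not called without MPNP 12 hpf library 2, where they were 0.80 (adjusted p = 0.15) and 0.78 (adjusted p = 0.20). The first was also lost without MPNP 8 hpf library 1 (0.85, adjusted p = 0.14), and the second without MPNP 16 hpf library 1 (0.78, adjusted p = 0.18) or after quantile normalization (0.81, adjusted p = 0.057).

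The gene with the highest ratio was klf2a (ENSDARG00000042667), a Krüppel-like factor known from flow-exposed endothelium. In MPNP it held 8.93 and 8.69 TPM at 8 hpf, 60.9 and 55.6 at 10 hpf, 57.1 and 67.8 at 12 hpf, 16.6 and 15.13 at 14 hpf, and 5.67 and 5.85 at 16 hpf. PNP libraries had 7.98 and 7.01 TPM at 8 hpf, 57.0 and 49.3 at 10 hpf, 53.3 and 51.6 at 12 hpf, 12.8 and 11.7 at 14 hpf, and 5.49 and 5.24 at 16 hpf. Its 10 and 12 hpf libraries overlapped in both pools, all 4 MPNP libraries of the later stages lay far below them, and the MPNP difference was 1.91 ± 0.12 (adjusted p = 1.9e-06) for 12 minus 14 hpf, 2.69 ± 0.12 (adjusted p = 4.2e-09) over 8 hpf and 3.23 ± 0.12 (adjusted p = 3.8e-09) over 16 hpf. The GABA-A receptor subunit gene gabrp (ENSDARG00000020901) had a like shape, with 1.79 and 2.08 TPM at 8 hpf, 12.5 and 11.2 at 10 hpf, 10.1 and 8.69 at 12 hpf, 3.01 and 2.25 at 14 hpf, and 1.05 and 0.74 at 16 hpf in MPNP. The PNP pools showed 2.22 and 1.45 TPM at 8 hpf, 15.3 and 11.1 at 10 hpf, 7.67 and 8.54 at 12 hpf, 3.19 and 1.38 at 14 hpf, and 1.12 and 0.84 at 16 hpf. In MPNP its 12 hpf level was above 14 hpf by 1.52 ± 0.24 (adjusted p = 0.0012). The gene sting1 (ENSDARG00000091058), whose product relays the sensing of cytosolic DNA, held 5.14 and 7.69 TPM in MPNP and 4.93 and 6.18 TPM in PNP at 12 hpf. Its mean was highest at 10 hpf in both pools, with 7.24 and 6.38 TPM in MPNP and 5.59 and 5.97 TPM in PNP. The 12 hpf level of sting1 was above 8 hpf by 1.62 ± 0.21 (limma adjusted p = 3.1e-05) and above 16 hpf by 2.00 ± 0.21 (adjusted p = 7.6e-06) in MPNP. The homeobox gene phox2a (ENSDARG00000007406), a regulator of cranial motor and noradrenergic neurons, held 5.35 and 7.09 TPM in MPNP and 5.31 and 5.65 TPM in PNP at 12 hpf, with MPNP differences of 1.53 ± 0.18 (adjusted p = 1.5e-05) and 2.23 ± 0.18 (adjusted p = 7.6e-07).

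Among the enzyme genes, ube2e2 (ENSDARG00000034670), a ubiquitin-conjugating enzyme, held 224 and 199 TPM in MPNP and 197 and 172 TPM in PNP at 12 hpf. Its MPNP difference of 1.41 ± 0.34 (adjusted p = 0.0050) over 16 hpf was not called without MPNP 16 hpf library 2 (1.18, adjusted p = 0.052), and over 8 hpf it was 1.73 ± 0.34 (adjusted p = 9.5e-04). The hyaluronidase gene hyal2 (ENSDARG00000062997) held 112 and 97.6 TPM in MPNP and 127 and 109.7 TPM in PNP, and was above 8 and 16 hpf in MPNP by 1.17 ± 0.18 (adjusted p = 1.4e-04) and 1.39 ± 0.18 (adjusted p = 4.6e-05). For lratb.1 (ENSDARG00000096594), of the lecithin retinol acyltransferase family, the 12 hpf libraries held 99.6 and 102 TPM in MPNP and 103 and 97.5 TPM in PNP, with MPNP differences of 1.04 ± 0.10 (adjusted p = 2.2e-06) and 1.57 ± 0.10 (adjusted p = 8.6e-08). At 12 hpf the pools overlapped for hyal2 and lratb.1, while both MPNP libraries of ube2e2 lay above both PNP libraries. The prostaglandin D synthase-like gene ptgdsb.1 (ENSDARG00000027088) held 81.0 and 67.6 TPM in MPNP and 117 and 99.0 TPM in PNP at 12 hpf, with an MPNP difference of 1.84 ± 0.18 (adjusted p = 3.2e-06) over 8 hpf. Its difference of 0.70 ± 0.18 (adjusted p = 0.0084) over 16 hpf was not called without MPNP 12 hpf library 1 (0.57, adjusted p = 0.074), without MPNP 16 hpf library 2 (0.61, adjusted p = 0.066) or after quantile normalization (0.58, adjusted p = 0.074). The transmembrane protein gene plxdc2 (ENSDARG00000059950) held 124 and 85.3 TPM in MPNP and 133 and 93.1 TPM in PNP at 12 hpf, and was above 8 and 16 hpf in MPNP by 2.87 ± 0.34 (adjusted p = 1.9e-05) and 1.71 ± 0.34 (adjusted p = 0.0016).

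Low members with a steep course included rims2b (ENSDARG00000102690), a scaffold of the presynaptic active zone. In MPNP it held 0.68 and 0.33 TPM at 8 hpf, 11.5 and 12.2 at 12 hpf, and 2.41 and 2.49 at 16 hpf, and its mean at 12 hpf was 11.8 ± 0.453 TPM in MPNP against 13.9 ± 1.79 TPM in PNP (SD, n = 2 each). The MPNP mean of rims2b was highest at 14 hpf, with 11.8 and 14.2 TPM. Its MPNP differences of 12 hpf over 8 and 16 hpf were 3.10 ± 0.25 (limma adjusted p = 5.1e-07) and 1.90 ± 0.25 (adjusted p = 5.7e-05). The zinc-finger gene znf488 (ENSDARG00000025017) held 0.14 and 0.07 TPM at 8 hpf, 12.7 and 12.6 at 12 hpf, and 3.86 and 4.71 at 16 hpf in MPNP and 0.28 and 0.27 TPM at 8 hpf, 13.1 and 17.5 at 12 hpf, and 4.29 and 4.33 at 16 hpf in PNP, with MPNP differences of 3.63 ± 0.16 (adjusted p = 4.2e-09) and 1.37 ± 0.16 (adjusted p = 1.7e-05). Both genes were under 1 TPM in all 8 hpf libraries. The gene tmem233 (ENSDARG00000116896) held 1.49 and 2.96 TPM at 8 hpf, 5.89 and 8.86 at 12 hpf, and 1.99 and 2.64 at 16 hpf in MPNP and 2.06 and 1.90 TPM at 8 hpf, 9.30 and 9.82 at 12 hpf, and 1.97 and 3.75 at 16 hpf in PNP. Its MPNP differences of 1.39 ± 0.35 (adjusted p = 0.0060) and 1.32 ± 0.35 (adjusted p = 0.010) were not called without MPNP 12 hpf library 2 (1.13, adjusted p = 0.059, and 1.06, adjusted p = 0.096). The first was also lost without MPNP 8 hpf library 1 (1.06, adjusted p = 0.068) and the second without MPNP 16 hpf library 1 (1.18, adjusted p = 0.068).

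The neighbouring stages separated the genes less. In MPNP, 18 of the 74 were higher at 12 hpf than at 10 hpf (24.3%, against 14.4% of all genes tested) and 0 were lower (6.63% of all genes tested were lower), with a median of 0.40 against 0.10 over all genes tested. With the library number as a block, 36 were higher (25.5% of all genes tested) and 1 was lower (14.9%). Against 14 hpf 18 were also higher (24.3%, against 3.74%) and 0 were lower (8.63%), with a median of 0.38 against -0.05, and with the block 30 were higher (11.3% of all genes tested) and 0 lower (16.3%). For 12 minus 14 hpf the median was 0.42 without MPNP 14 hpf library 2, 0.28 without MPNP 14 hpf library 1 and 0.31 without MPNP 12 hpf library 2. Fewer of the 74 were called in each of these fits, and in the last not all calls were of higher levels at 12 hpf.

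The 10 and 14 hpf libraries of PNP, which the rule did not use, divided the genes by the shoulder of their course. In PNP 22 of the 74 were lower at 14 hpf than at 10 hpf (29.7%, against 17.7% of all genes tested) and 9 were higher (12.2%, against 25.3%), and with the library number as a block 27 were lower (27.4% of all genes tested) and 14 higher (33.5%). The median over the 74 was -0.29, against 0.07 over all genes tested, and was -0.12 without PNP 14 hpf library 1. Without PNP 10 hpf library 1 the median was -0.24, so of the PNP libraries left out, 14 hpf library 1 weakened the lean to lower levels at 14 hpf the most. The 9 higher at 14 hpf were pax8, wdr76, vgll3, dmbx1, znf488, rims2b, daam1, csgalnact1 and mnx2b. All 9 had the same sign in MPNP, where their median difference of 14 minus 10 hpf was 1.49 against 0.83 in PNP. Of the 22 lower at 14 hpf, 19 had the same sign in MPNP, with a median of -0.50 in MPNP and -0.69 in PNP. These included klf2a with -2.03 ± 0.12 (adjusted p = 3.5e-08), gabrp with -2.16 ± 0.24 (adjusted p = 1.3e-05), fezf2 with -1.21 ± 0.30 (adjusted p = 0.0053) and otx2 with -0.93 ± 0.15 (adjusted p = 3.2e-04) in PNP. The PNP calls picked both sets, so the medians of the 2 pools are not an unselected comparison. The share with the same sign over all genes called in PNP was not measured.

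Within the gene lists, the regional genes of the neural plate held the most members, on the list with the most measured genes. The members and the lists were chosen with earlier results of these data known. Each list's counts include its members, which were picked for this shape in PNP, so the counts are a description. Neural crest and neural plate border held a like share, 3 of 34. Over all genes tested, 74 of 16586 were members. The counts of each list are to be read against all genes tested, of which 27.9% were higher and 17.2% lower at 12 hpf than at 8 hpf in MPNP, 14.5% higher and 22.5% lower than at 16 hpf, and 2.16% higher than both. Of 66 measured genes on the neural plate list 6 were members (rx3, otx2, fezf2, pax8, shh, vgll3). In MPNP 46 of the 66 were higher at 12 hpf than at 8 hpf and 5 lower, 21 were higher at 12 hpf than at 16 hpf and 34 lower, and 14 were higher than both. The list's median differences were 1.56 and -0.55, against 0.15 and -0.04 over all genes tested. Its 8 genes that passed both tests without being members were fgf8, fgf3, pax6, dbx1, irx1, irx7, lhx2 and sp9. More genes of the list were thus higher still at 16 hpf than had come down.

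The list of neural crest and neural plate border held 3 members (zic1, kctd15, twist1a) among 34 genes, of which 19 were higher and 5 lower at 12 than at 8 hpf, 11 higher and 13 lower than at 16 hpf, and 5 higher than both. Tailbud and notochord held 2 (cdx1a, shh) among 33 genes, with 21 higher and 8 lower than at 8 hpf, 13 higher and 14 lower than at 16 hpf, and 5 above both. Placodes and the otic region held 1 member (pax8) among 34 genes, and 8 of the 34 were above both. FGF, BMP and retinoic acid signalling held 1 (szl) among 62, with 7 above both. The segmentation clock and Notch list held 1 (her5, which acts in the brain rather than in somites) among 38, with 5 above both. Somites and myogenesis held 1 (twist2) among 42 with 4 above both, heart, kidney and lateral plate 1 (pax8) among 35 with 4, neurogenesis 1 (olig2) among 37 with 3, and epidermis and ionocytes 1 (klf2a) among 43 with 3. Lists share genes, and a list symbol without a paralog letter can stand for either paralog.

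No member was on the other 10 lists. Of these, the circadian clock had 4 of 30 genes above both stages in MPNP, the cell cycle 3 of 57, and p53 targets, blood with endothelium, and endoderm 1 each of 34, 28 and 18. Motile cilia (45 genes), stress and immediate early genes (37), the yolk syncytial layer (25), Kupffer's vesicle (21) and the hatching gland (16) had 0. In all, 15 of the 74 genes were on a list.

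The second question was whether the genes differed between MPNP and PNP, for which 10 and 14 hpf are the stages that the rule did not use. At 10 hpf none of the 74 passed limma's test in either direction (0.115% of all genes tested were higher and 0.0543% lower). An unadjusted p under 0.05 was found for 18 of them, but how many of all genes tested had one was not counted. The differences leaned to lower levels in MPNP, with 58 below 0 and 15 above, and 20.3% of the genes were positive against 34.3% of all genes tested. Both MPNP libraries lay below both PNP libraries for 34 of the 74 (45.9%, against 22.5% of all genes tested) and above them for 3 (4.05%, against 9.07%). The median difference was -0.24 on the log2(TPM + 1) scale, against -0.08 over all genes tested, and -0.22 and -0.23 in the libraries numbered 1 and 2. After quantile normalization it was -0.14, against -0.01 over all genes. At 10 hpf the mean of myl10 was lower in MPNP, as it also was at 14 hpf, and that of tbxta was nearly level. Whether a stage difference between the pools bears on these values was not tested.

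With the library number within stage as a block, 5 of the 74 were called lower in MPNP at 10 hpf (1.51% of all genes tested) and 1 higher (0.814%). The genes ptgdsb.1 and ptgdsb.2 (ENSDARG00000071626), named as copies of each other, between which reads may be split, were 2 of the 5. Apart from ptgdsb.1, pax8 and znf488, the genes named for this comparison were chosen after their values were seen. At 10 hpf ptgdsb.2 held 12.7 and 20.2 TPM in MPNP and 26.2 and 44.9 TPM in PNP, a difference of -1.05 with an adjusted p of 0.0045 under the block and 0.12 without it in limma. For ptgdsb.1 the libraries held 50.4 and 47.5 TPM in MPNP and 77.0 and 71.3 TPM in PNP, a difference of -0.59 (adjusted p = 0.017 under limma's block, 0.29 without). Both genes stood lower in MPNP in every pair of same-numbered libraries at 10 hpf.

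At 10 hpf pax8 held 6.83 and 6.51 TPM in MPNP and 12.7 and 10.6 TPM in PNP, a difference of -0.72 (adjusted p = 0.025 under limma's block, 0.075 without). The WD-repeat gene wdr76 (ENSDARG00000053554) held 7.82 and 9.62 TPM in MPNP and 14.3 and 16.3 TPM in PNP, a difference of -0.75 (adjusted p = 0.029 with limma's block, 0.10 without). The ephrin receptor gene ephb3 (ENSDARG00000031548) held 30.5 and 35.9 TPM in MPNP and 41.8 and 48.9 TPM in PNP, a difference of -0.44 (adjusted p = 0.020 with limma's block, 0.48 without). In each of these 3 genes the pools did not overlap. The 1 row called higher was si:ch211-113a14.28, with a difference of 1.06 (adjusted p = 0.029 with limma's block, 0.66 without). The deviations of same-numbered libraries correlated between stages as well as within them, so the number was also fitted as 1 term over all stages. That fit called the same 6 genes and also znf488 and mnx2b, 7 lower (1.77% of all genes tested) and 1 higher (0.79%). For znf488 the difference was -0.67 (adjusted p = 0.028 in limma) and for mnx2b -0.79 (adjusted p = 0.044).

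At 14 hpf the median gene lay level between the pools. None of the 74 passed limma's test (0.609% of all genes tested were higher and 0.0784% lower), nor did any with the block (1.31% of all genes tested were higher and 0.338% lower) or with 1 term over all stages (1.51% and 0.344%). Without the block 3 had an unadjusted p under 0.05 in limma, which was not counted over all genes tested. The median difference was 0.00, against 0.01 over all genes tested, with 35 genes above 0 and 36 below. The libraries did not overlap for 11 genes in the direction of lower MPNP levels and for 11 in the other (14.9% each, against 13.2% and 13.7% of all genes tested). The change of the pool difference between 10 and 14 hpf had a median of 0.26, against 0.09 over all genes tested, and was positive for 58 of the 74 (78.4%, against 64.4%). It was called for 0 of the 74 (0.0% of all genes tested were higher and 0.00603% lower), for 0 with the block (0.0% of all genes tested in either direction), and for 0 with 1 term over all stages (0.0482% of all genes tested were higher and 0.0181% lower). Without the block 8 of the 74 had an unadjusted p under 0.05 in limma, again without a count over all genes tested.

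At the stages that the rule used, the median difference between MPNP and PNP was -0.02 at 8 hpf, -0.18 at 12 hpf and -0.03 at 16 hpf. Without PNP 12 hpf library 2 the 12 hpf median was -0.071. The other 2 medians lay near 0 and changed sign on leaving out 1 library, to 0.0024 at 8 hpf without PNP 8 hpf library 1, and to 0.0094 and 0.014 at 16 hpf without MPNP 16 hpf library 1 or PNP 16 hpf library 2. Over all genes tested the median differences were -0.03 at 8 hpf, -0.03 at 12 hpf and -0.007 at 16 hpf. At 12 hpf 51 of the 74 were lower in MPNP and 23 higher, a split that was not measured over all genes tested. The genes were picked for high PNP values at that stage, so these values are a description.

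**Figure D5:**
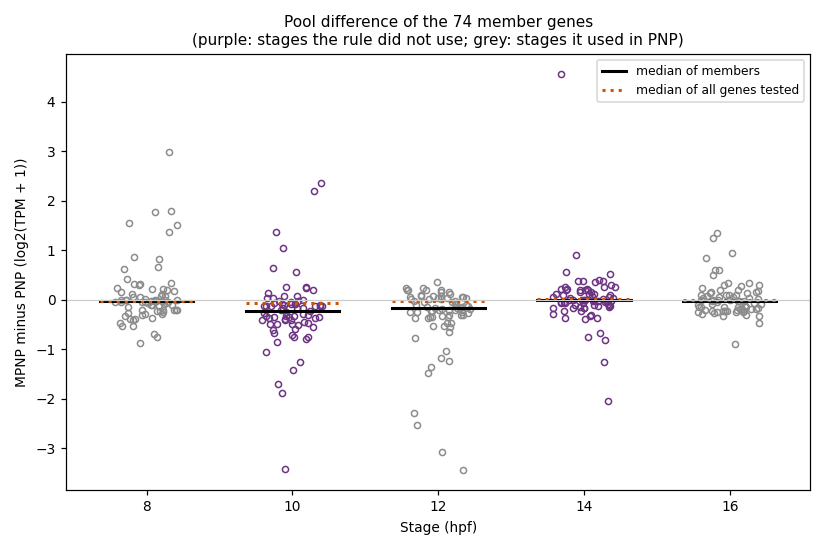
Difference between MPNP and PNP means on the log2(TPM + 1) scale for each of the 74 genes (points) at each stage, with the median of the 74 as a solid bar and that of all genes tested as a dotted line. Purple marks 10 and 14 hpf, which the rule did not use, and grey the stages it used in PNP. The median is -0.24 at 10 hpf and 0.00 at 14 hpf.

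The remaining 20 genes did not pass both tests in MPNP, 10 of them without a clone-independent symbol. In 4 of the 74 the PNP mean at 12 hpf rested on library 2 alone, with library 1 listed at 0. The mitochondrial gene mt-atp8 (ENSDARG00000063910), which overlaps another ATP synthase gene, was listed at 0 and 444 TPM in MPNP and 0 and 628 TPM in PNP at 12 hpf, and elsewhere above 0 only in library 2 of MPNP at 14 hpf (560.3 TPM) and of PNP at 10 hpf (112 TPM). The small nucleolar RNA snord97 (ENSDARG00000080895) was listed at 0 and 0 TPM in MPNP and 0 and 70.0 TPM in PNP at 12 hpf, and elsewhere above 0 only in MPNP 10 hpf library 2 (20.0 TPM). The row of u3 (ENSDARG00000112042), 1 of 29 rows with that symbol, was listed at 0 and 0 TPM in MPNP and 0 and 22.6 TPM in PNP at 12 hpf. It was also above 0 in library 2 of MPNP (7.53 TPM) and of PNP (4.31 TPM) at 16 hpf. The fourth, ENSDARG00000117000, was listed at 0 in every MPNP library. Small nucleolar RNAs are not usually polyadenylated, and the libraries were selected for poly(A).

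Of the 4 rows named snora73, ENSDARG00000080823 and ENSDARG00000083400 are members, and reads may be split between such copies. At 12 hpf the first held 10.8 and 15.25 TPM in MPNP and 40.7 and 22.4 TPM in PNP, and its MPNP difference over 8 hpf was 1.99 ± 1.60 (adjusted p = 0.33). At 12 hpf the second held 20.9 and 2.97 TPM in MPNP and 17.5 and 25.5 TPM in PNP. Replicate libraries of both rows lay far apart in several groups. The trypsin-like protease gene prss59.2 (ENSDARG00000073742) held 0.15 and 7.98 TPM in MPNP and 0.75 and 13.7 TPM in PNP at 12 hpf. In all 10 groups its library 1 was under 1 TPM and its library 2 above 3 TPM, so its mean is set by library 2.

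The other named genes without both calls missed 1 of them. The ankyrin-repeat gene ankrd31 (ENSDARG00000052731) held 5.88 and 6.500 TPM at 8 hpf, 9.87 and 10.0 at 12 hpf, and 6.89 and 8.03 at 16 hpf in MPNP and 4.31 and 5.94 TPM at 8 hpf, 10.8 and 15.4 at 12 hpf, and 4.72 and 6.72 at 16 hpf in PNP, and its MPNP difference was 0.61 ± 0.21 (adjusted p = 0.028) over 8 hpf and 0.38 ± 0.21 (adjusted p = 0.18) over 16 hpf. The call over 8 hpf was lost on leaving out any 1 library of the 2 groups (0.55 to 0.67, adjusted p = 0.063 to 0.12) and after quantile normalization (0.38, adjusted p = 0.065). The gene pstpip2 (ENSDARG00000089569), of an actin-linked adaptor protein, held 0.99 and 0.92 TPM at 8 hpf, 6.17 and 6.74 at 12 hpf, and 3.07 and 3.82 at 16 hpf in MPNP, with differences of 1.93 ± 0.41 (adjusted p = 0.0020) and 0.75 ± 0.41 (adjusted p = 0.18). For pcp4l1 (ENSDARG00000023181), with 2.41 and 4.22 TPM at 8 hpf, 4.67 and 7.25 at 12 hpf, and 1.85 and 1.53 at 16 hpf in MPNP, the differences were 0.70 ± 0.34 (adjusted p = 0.11) and 1.35 ± 0.34 (adjusted p = 0.0066), and the second was not called without MPNP 12 hpf library 2 (1.08, adjusted p = 0.073). The lowest member, atcay (ENSDARG00000071678), which encodes the neuronal protein caytaxin, held 2.89 and 5.81 TPM at 8 hpf, 4.22 and 4.43 at 12 hpf, and 1.77 and 2.06 at 16 hpf in MPNP and 1.83 and 2.79 TPM at 8 hpf, 4.64 and 5.46 at 12 hpf, and 1.94 and 2.98 at 16 hpf in PNP. Its MPNP 8 hpf library 2 was above both 12 hpf libraries, the difference over 8 hpf was 0.05 ± 0.28 (adjusted p = 0.91), and that over 16 hpf was 0.87 ± 0.28 (adjusted p = 0.025) and not called on leaving out any 1 library of the 2 groups (0.80 to 0.94, adjusted p = 0.066 to 0.11).

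A few clone-named rows moved the other way in MPNP. Between 12 and 8 hpf, si:ch211-113a14.22 (ENSDARG00000114895), si:ch211-113a14.28 (ENSDARG00000070297) and zgc:165555 (ENSDARG00000112954), chosen after their values were seen, were the 3 members called lower. With a pseudocount of 0.1, or without MPNP 8 hpf library 1, 0 members were called lower, and 2 were when 1 of the MPNP 12 hpf libraries was left out. The first held 17.2 and 8.66 TPM at 8 hpf, 3.40 and 2.47 at 12 hpf, and 1.78 and 3.10 at 16 hpf in MPNP and 4.34 and 3.04 TPM at 8 hpf, 11.0 and 7.43 at 12 hpf, and 1.08 and 0.46 at 16 hpf in PNP, with an MPNP difference of -1.76 ± 0.52 (adjusted p = 0.013) over 8 hpf. Its highest MPNP libraries were thus those of 8 hpf and its highest PNP libraries those of 12 hpf. Rows that share the si:ch211-113a14 name may share reads.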

How the data were processed

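RNA of whole zebrafish embryos was measured by poly(A) RNA sequencing in 20 libraries, 2 for each of 2 pools (MPNP and PNP) at 5 stages. The deposited values are TPM per Ensembl gene, made by the authors and rounded to 2 decimals. Per the submitters' processing notes, the build was GRCz11 and the tools included RSEM 1.3.3, STAR 2.7.3a, DESeq2 1.42.1 and HTSeq 0.12.3. The sources used here do not say which tool made the TPM. Depth cannot be read from TPM, so no value has a counting interval. Symbols come from a gene name table (28988 of 32057 IDs matched), and no coordinates or sequences are given.

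limma 3.58.1 (R 4.3.3) was fitted to log2(TPM + 1) of the 16586 genes with a mean of at least 0.5 TPM over all libraries, with 1 mean per group, 10 residual degrees of freedom and empirical Bayes moderation with an intensity trend. Tests were 2-sided, a call needs a Benjamini-Hochberg adjusted p under 0.05 across the genes tested, and a difference on this scale understates the change of low genes. The procedure was also run on simulated data with independent libraries. Same-numbered libraries deviated together here, so that run does not test the procedure under this dependence. A call over both means 12 hpf above 8 hpf and above 16 hpf, each past the threshold. Alternatives were another pseudocount (0.1), other filters, quantile normalization, a fit to the MPNP libraries alone, each library left out, other thresholds of the rule, and a block.

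The block is the library number, used within stage for pool differences and as a covariate between stages. Same-numbered libraries of the 2 pools deviated together, with correlations across genes of 0.461, 0.560, 0.587, 0.507 and 0.574 at the 5 stages, so the numbers were taken to pair them. Any 2 of the 10 groups, at different stages too, correlated at 0.410 to 0.606 (45 pairs), so the number marks a difference shared over stages rather than pairs within a stage. A block of 1 term over all stages was therefore added for the pool differences after the data were seen. The meaning of a number is not labelled.

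The members and the 20 gene lists were chosen with earlier results of these data known. Named were members with a symbol not derived from a clone. They are the 12 with the highest PNP mean at 12 hpf, the 12 with the largest ratio, up to 6 on each list, up to 10 called between the pools (there were none), those not called over both in MPNP, up to 10, with any whose MPNP mean at 12 hpf is not above both, and those next to the thresholds. Genes outside this rule are said to be chosen after their values were seen, or appear only in counted sets.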

Additional observations from a re-analysis of the deposited data

Results flagged for a closer look

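In 6 members both same-numbered library pairs of MPNP moved one way and both pairs of PNP the other. The difference between the pools was not tested for any of them, and the PNP side of each was fixed by the rule that chose the genes. All but snora73 were named after their values were seen.

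For 5 rows MPNP was lower at 12 hpf than at 8 hpf in both pairs while PNP was higher at 12 hpf in both. The mean MPNP difference of 12 minus 8 hpf was -1.76 for si:ch211-113a14.22, -2.13 for si:ch211-113a14.28, -1.04 for si:ch211-113a14.19, -1.21 for zgc:165555 and -1.14 for snora73 (ENSDARG00000083400). At 8 hpf si:ch211-113a14.28 held 14.6 and 7.59 TPM in MPNP and 4.04 and 2.07 TPM in PNP. At 12 hpf it held 1.93 and 1.39 TPM in MPNP and 9.08 and 4.37 TPM in PNP. The row zgc:165555 held 12.9 and 6.54 TPM in MPNP and 2.26 and 1.77 TPM in PNP at 8 hpf. Its 12 hpf libraries overlapped between the pools, with 2.14 and 5.24 TPM in MPNP and 7.78 and 2.67 TPM in PNP.

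For 2 rows the same held between 12 and 16 hpf. The mean MPNP difference of 12 minus 16 hpf was -2.48 for ENSDARG00000112868, which held 0 and 9.68 TPM in MPNP and 24.8 and 47.8 TPM in PNP at 12 hpf. It was -0.072 for si:ch211-113a14.28, which was almost level in MPNP, with 1.93 and 1.39 TPM at 12 hpf and 2.21 and 1.41 at 16 hpf. That name family may share reads between its rows, which was not tested.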

How the results depend on the processing

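The 74 members depend on the thresholds. A ratio of 1.5 kept 192 rows and a ratio of 3 kept 26, a level of 2 TPM kept 119 and one of 10 TPM kept 47, 61 were also above 10 and 14 hpf, and either library number alone kept 69 to 90. On the MPNP columns the same ratios kept 210 and 28 rows, 10 TPM kept 56 and 1 library number kept 82 to 98. The 54 members higher at 12 hpf than at 8 and 16 hpf in MPNP became 48 with a pseudocount of 0.1, 54 with a 1 TPM filter, 50 unfiltered, 50 after quantile normalization, 59 with the replicate block, 54 in MPNP alone, and 40 to 53 on leaving out 1 library. Leaving out 1 library gave 50 to 57 calls for MPNP 12 minus 8 hpf (median 1.47 to 1.65), 41 to 50 for 12 minus 16 hpf (1.07 to 1.29), 15 to 18 for 12 minus 10 hpf (0.32 to 0.48), 8 to 12 for 12 minus 14 hpf (0.28 to 0.45), and 19 to 28 for PNP 14 minus 10 hpf (-0.37 to -0.12). For MPNP minus PNP it gave 0 calls at 10 hpf (-0.30 to -0.20), 0 at 14 hpf (-0.085 to 0.053) and 0 for their difference (0.21 to 0.37), and medians of -0.092 to 0.0024 at 8 hpf, -0.27 to -0.071 at 12 hpf and -0.069 to 0.014 at 16 hpf.

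The block gave 37 calls for 12 minus 10 hpf, 30 for 12 minus 14 hpf and 6 for MPNP minus PNP at 10 hpf, or 8 there as 1 term over all stages, chosen after seeing the data. Medians moved by more than the spread between library numbers with a pseudocount of 0.1 (1.74 for 12 minus 8 hpf, 0.43 for 12 minus 10 hpf, 0.41 for 12 minus 14 hpf, -0.29 for the pools at 10 hpf). They also did after quantile normalization (1.27, 1.29, 0.28 and 0.39 for 12 minus 8, 16, 10 and 14 hpf, -0.14 and -0.068 for the pools at 10 and 16 hpf, 0.15 for the difference of 14 and 10 hpf). Quantile normalization moved the median of all genes from 0.15 to 0.01 for 12 minus 8 hpf, from -0.04 to 0.07 for 12 minus 16 hpf, from 0.10 to -0.01 for 12 minus 10 hpf and from 0.07 to -0.04 for PNP 14 minus 10 hpf.

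For the 39 named genes, 780 alternatives of 78 values gave 731 with the same direction and call, 33 that lost a call, 6 that gained one and 10 that turned round, all 10 in genes without that call. Of these, 1 came from quantile normalization (atcay, 12 minus 8 hpf, -0.24) and the others from leaving out 1 library. Over the libraries left out, 12 minus 8 hpf ranged from -1.03 to 1.93 for prss59.2, from -0.36 to 0.45 for atcay and from -2.37 to 0.089 for snora73 ENSDARG00000083400. Likewise 12 minus 16 hpf ranged from -1.20 to 1.77 for prss59.2, from -2.13 to 0.34 for snora73 ENSDARG00000083400 and from -0.65 to 0.97 for snora73 ENSDARG00000080823. The cause of these changes was not tested. With 2 libraries per group, values under 10 TPM are the least certain, and TPM gives no depth to set a limit.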

Other observations

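The rule applied to the MPNP columns kept 36 rows that it did not keep in PNP, of which 18 had a PNP ratio between 1.5 and 2 and at least 5 TPM in PNP at 12 hpf, so that they lay near the threshold. The examples below were chosen after their values were seen and carry no test. The caudal homeobox gene cdx4, a regulator of the posterior body, held 361 and 508 TPM in MPNP and 339 and 545 TPM in PNP at 12 hpf, with a ratio of 2.01 in MPNP and 1.77 in PNP. The DNA methyltransferase gene dnmt3b held 38.4 and 55.3 TPM in MPNP and 30.8 and 37.8 TPM in PNP at 12 hpf, with a ratio of 2.54 in MPNP and 1.70 in PNP. The LIM homeobox gene lhx2, active in the eye field and forebrain, held 14.1 and 17.3 TPM in MPNP and 11.5 and 18.7 TPM in PNP at 12 hpf, with a ratio of 2.46 in MPNP and 1.93 in PNP. The libraries of the pools overlapped for cdx4 and lhx2 and did not for dnmt3b.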
